A study of Mus musculus with 6 samples.

Results

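The RUNX factors and the Gfi1 repressor complex were followed in cells of the mouse embryo that are labelled as hematopoietic progenitor and stem cells. The group was defined by gene symbol as 8 of the 24062 genes in the count tables, namely *Runx1*, *Runx2*, *Runx3*, *Cbfb*, *Gfi1*, *Gfi1b*, *Kdm1a* and *Rcor1*, and each count table lists all of them. CD31+ckit+ cells were sorted from the aorta-gonad-mesonephros region (AGM) of *Gata2Venus* embryos (C57BL/6JOlaHsd by the labels) at embryonic day 10.5, and split by Venus fluorescence into an intermediate fraction, called Vmed here, and a high fraction, called Vhigh. Both fractions came from embryos with 1 reporter allele, in which an internal ribosome entry site and Venus sit in the 3′ untranslated region of *Gata2* so that fluorescence follows *Gata2* transcription, and neither had a treatment beyond the sort. RNA was sequenced from 3 libraries per fraction, and the fractions carry the same replicate numbers. The AGM dissection took in part of the vitelline and umbilical arteries, and the number of embryos behind each library is not given in the sources used here.

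RUNX proteins bind DNA through the Runt domain as dimers with CBFB, which does not touch DNA itself and steadies the complex. Runx1 is required for blood cells to emerge from hemogenic endothelium, Runx2 is best known as the master regulator of bone, and Runx3 is known for its roles in sensory neurons and T lymphocytes. Gfi1 and Gfi1b are zinc finger repressors that lie downstream of Runx1 in this transition. Through an N-terminal SNAG domain they recruit the histone demethylase LSD1, encoded by *Kdm1a*, with its partner CoREST, encoded by *Rcor1*, and this complex is known to switch off endothelial genes as blood cells form.

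Promoter sequences were taken from RefSeq on GRCm38.p6, as windows of 300 bases (250 before and 50 after an annotated start). All 8 genes matched by symbol, with 11 windows. One stretch is shown because it is the longest run of letters common to windows of the 3 *Runx* genes. It has 18 bases, printed in capitals within 30 bases of each window, 5′ to 3′ on the strand of the gene.

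*Runx1*: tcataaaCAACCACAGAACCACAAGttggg
*Runx2*: tcacaaaCAACCACAGAACCACAAGtgcgg
*Runx3*: ggtccctCAACCACAGAACCACAAGgccag

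These lie at chr16:92826026-92826055 on the minus strand, chr17:44814584-44814613 on the minus strand and chr4:135120502-135120531 on the plus strand. The shared run begins at base 27 of the *Runx1* transcript and base 22 of the *Runx2* transcript, counted from 1 at the start, and at base -136 before the *Runx3* start. It holds the RUNX hexamer TGTGGT 2 times on the opposite strand, without overlap. Of all 32851 windows, 4 (0.012%) hold the 18 bases on either strand, the fourth being that of *Gm16225*, on the opposite strand at *Runx3*. The second listed windows of *Runx1* and *Runx3* do not hold it. RUNX hexamers (TGTGGT or TGCGGT, either strand) occur in 3 of the 11 windows of these genes and in 22.4% of all windows.

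The window of *Gfi1b* was the only one of the 11 with a GATA hexamer (AGATAA or TGATAA, in 18.6% of all windows) or with AAATCA, which holds the AATC core of Gfi sites (in 14% of all windows). Both were searched on either strand. The 250 bases before its start (chr2:28621983-28622232, minus strand) are shown for these letters, which stand in capitals at bases -120 and -34 from the start.

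*Gfi1b*: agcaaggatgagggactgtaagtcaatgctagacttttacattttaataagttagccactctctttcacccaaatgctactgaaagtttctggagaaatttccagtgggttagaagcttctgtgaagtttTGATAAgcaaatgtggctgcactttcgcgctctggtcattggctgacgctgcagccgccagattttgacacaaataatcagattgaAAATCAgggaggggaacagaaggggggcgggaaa

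Neither *Gfi1* window held any of the 3 motifs. A match is a run of letters and was not tested for binding.

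The libraries held between 8296831 and 12035206 counts on genes. Same-numbered libraries were alike in several properties. Reads on no annotated gene made up 39.6% and 39% of the uniquely aligned reads in replicate 1, 49.2% and 60.7% in replicate 2, and 15.4% and 13.5% in replicate 3 of Vmed and Vhigh, respectively. Vhigh replicate 1 had the fewest genes with a count (10427) and Vhigh replicate 2 the most (18460). *Kit* and *Pecam1*, the genes of the sorting markers, were seen in every library, as was *Gata2*. *Kit* also did not overlap, at 66.9, 200.7 and 60.5 CPM in Vmed and at 276.4, 429.3 and 529.3 CPM in Vhigh replicates 1, 2 and 3. Its log2 fold change was 1.91 (SE 0.57, unadjusted p = 0.0090, adjusted p = 0.9998 by the quasi-likelihood test of edgeR). The likelihood ratio test of edgeR gave *Kit* an adjusted p of 0.66. With the replicate block, its adjusted p was 0.69 by the quasi-likelihood test and 0.034 by the likelihood ratio test. *Gata2* was at 52.6, 28.4 and 70.0 CPM in Vmed and at 42.6, 72.2 and 144.5 CPM in Vhigh replicates 1, 2 and 3, so that Vhigh replicate 1 was below Vmed replicates 1 and 3. CPM are counts scaled to the total gene count of a library, after TMM normalisation. Counts under 3 were treated as not shown, which corresponds to 0.242 to 0.358 CPM for counting error.

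*Runx1* and *Gfi1b* were the only genes of the 8 whose 3 Vhigh libraries were all above the 3 Vmed libraries. Both had about 4 times the level in Vhigh, with fitted ratios of 4.36 for *Runx1* and 4.33 for *Gfi1b*. None of the 8 passed the test. By edgeR's quasi-likelihood test, 0 of 12688 genes (0%) had an adjusted p under 0.05, while 259 genes (2.04%) had an unadjusted p under 0.05. The likelihood ratio test of edgeR called 21 genes after adjustment, of which 11 (0.0867% of those tested) were higher in Vhigh, and DESeq2 called 88, in each case none of the 8. The share of tested genes with no overlap and higher values in Vhigh was 3.64%, against 2 of these 8. An unadjusted p under 0.05 with higher values in Vhigh was reached by 0.867% of tested genes and by the same pair. In RNA from sorted bulk cells, fewer cells of a type and less RNA per cell cannot be told apart.

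**Figure D1:**
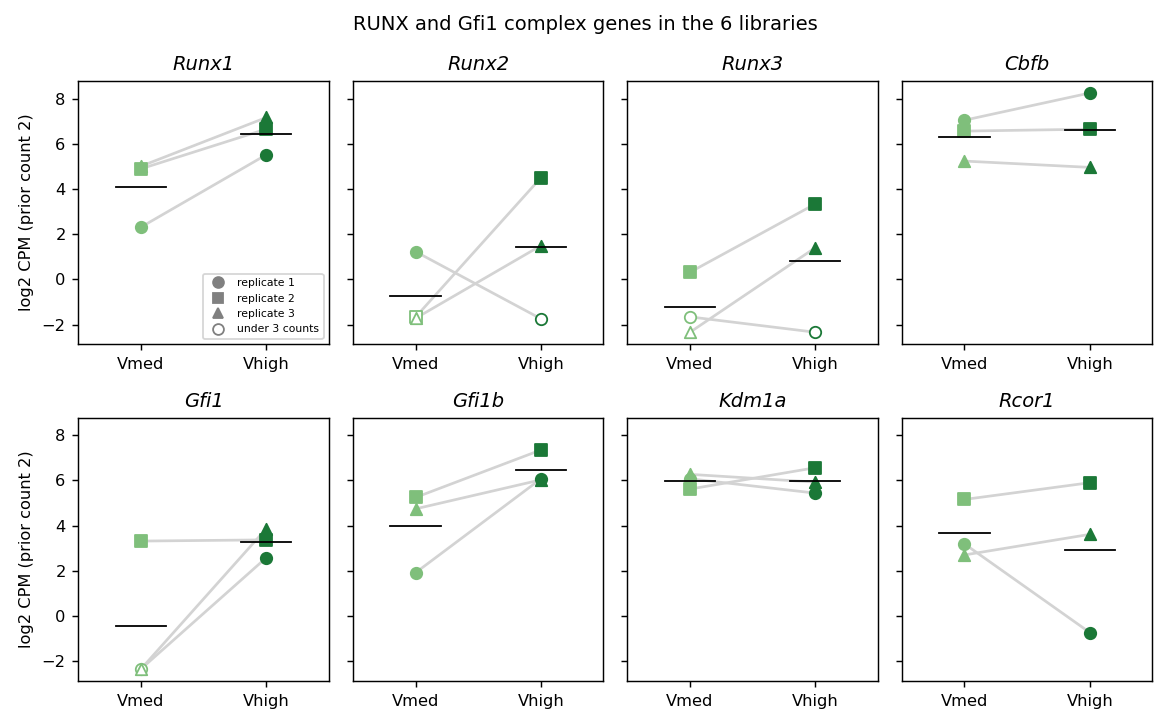
Expression of the 8 genes as log2 CPM (prior count 2) in each library, with Vmed and Vhigh on the x axis. Points are libraries with a shape for each replicate number, grey lines join same-numbered libraries, bars are means of 3, and open points have under 3 counts. The Vhigh points of *Runx1* and *Gfi1b* lie above all of their Vmed points, and the other 6 genes overlap.

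*Runx1*, on chromosome 16 of GRCm38 from 92601466 to 92826149, was at 4.78, 29.5 and 32.0 CPM in Vmed replicates 1, 2 and 3 and at 45.5, 100.2 and 142.9 CPM in Vhigh. The lowest Vhigh library, replicate 1, was thus above the highest Vmed library, and Vmed replicate 1 was far under the other Vmed libraries. The means were 22.1 ± 15.03 CPM (SD, n = 3) in Vmed and 96.2 ± 48.8 CPM (SD, n = 3) in Vhigh. The fitted log2 fold change was 2.12 (SE 0.87), with a 95% interval from 0.18 to 4.06 (unadjusted p = 0.041, adjusted p = 0.9998 by the quasi-likelihood test of edgeR). Within same-numbered pairs, log2 CPM differed by 3.20, 1.76 and 2.15, so *Runx1* was higher in Vhigh in each pair, as were 14.9% of all tested genes. The exact two-sided permutation test gave p = 0.1, the smallest possible with 3 libraries against 3. Without Vmed replicate 1, the fitted log2 fold change was 1.65. With the replicate number as a block it was 2.38 (SE 0.60, unadjusted p = 0.011, adjusted p = 0.96 by the quasi-likelihood test of edgeR). In that design the likelihood ratio test of edgeR gave an adjusted p of 0.27. The counts do not separate the isoforms that start at its alternative promoters.

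*Runx2* (chromosome 17, 44495987 to 44814797) and *Runx3* (chromosome 4, 135120652 to 135177990) were near the limit of detection in most libraries. *Runx2* had 18, 1 and 1 counts in Vmed and 1, 277 and 31 counts in Vhigh replicates 1, 2 and 3. *Runx3* had 1, 9 and 0 counts in Vmed and 0, 123 and 29 counts in Vhigh. Each was therefore highest in Vhigh replicate 2, at 22.3 CPM for *Runx2* and 9.92 CPM for *Runx3*, and under 3 counts in Vhigh replicate 1. Each reached the filter on low counts in 1 Vmed and 2 Vhigh libraries. The fitted log2 fold changes were 3.38 (SE 2.29) and 3.37 (SE 2.54), with unadjusted p of 0.20 and 0.25 by the quasi-likelihood test of edgeR, and the fractions overlapped for both genes (exact permutation test, two-sided, p = 0.4 for each). Without Vhigh replicate 2, the log2 fold changes were 0.63 and 1.57. They were as high as 6.09 for *Runx2* without Vmed replicate 1 and 5.84 for *Runx3* without Vmed replicate 2.

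Vhigh replicate 2 was also the library with the largest share of reads on no annotated gene (60.7%) and the most genes detected. The bone and cartilage list was at a summed 29.0 CPM in that library, where 6 of its 8 genes had at least 3 counts, and at 11.7 to 220.3 CPM in Vmed. Of its genes there, *Sp7*, which lies downstream of *Runx2*, was at 0.16 CPM, *Dlx5* at 0.32, *Bglap* at 1.37, *Spp1* at 9.11 and *Ibsp* at 0 CPM. The rest of the list, *Alpl*, *Sox9* and *Col2a1*, was at 5.32, 6.29 and 6.45 CPM in that library. In Vmed replicates 1, 2 and 3, *Alpl* was at 18.4, 0.47 and 21.2 CPM. *Sox9* was at 184.3, 5.6 and 11.4 CPM in these Vmed libraries, and *Col2a1* at 12.7, 5.6 and 16.6 CPM. *Dlx5* and *Bglap* had counts in no other library, and *Spp1* was at 10.1 CPM in Vhigh replicate 3 and at 4.30, 0 and 0 CPM in Vmed. The sensory neuron list was at 98.2 CPM there and at 23.1 to 609.4 CPM in Vmed, with *Isl1* at 69.7, *Elavl4* at 12.3, *Pou4f1* at 10.6, *Tubb3* at 3.95 and *Ntrk3* at 1.69 CPM. *Pou4f1*, a sensory neuron factor, was otherwise seen only in Vmed replicate 2, at 14.6 CPM. The part of these properties in the *Runx2* and *Runx3* values was not tested. Other genes lie within the bounds of *Runx2*, including *Supt3* and antisense RNAs, and an antisense gene overlaps *Runx3*. No gene of the count table, by its current symbol, shares exon bases with any of the 8.

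*Cbfb* (chromosome 8, 105170674 to 105217989), the common partner of the RUNX proteins, was expressed in every library and varied widely among them. It was at 131.5, 94.2 and 37.4 CPM in Vmed replicates 1, 2 and 3 and at 303, 99.8 and 30.8 CPM in Vhigh. The libraries fell in the same order in both fractions, highest in replicate 1 and lowest in replicate 3, and the fractions overlapped. The fitted log2 fold change was 0.72 (SE 0.82, unadjusted p = 0.40 by the quasi-likelihood test of edgeR), and it turned to -0.43 without Vhigh replicate 1.

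The count ratio of *Runx1* to *Cbfb* within a library does not depend on the scaling between libraries. On the log2 scale it was -4.77, -1.67 and -0.23 in Vmed and -2.73, 0.01 and 2.21 in Vhigh replicates 1, 2 and 3. Same-numbered libraries differed by 2.03, 1.68 and 2.44, so that the ratio was higher in Vhigh by a similar amount in each pair. Over the fractions, the mean was -2.22 ± 2.32 (SD, n = 3) in Vmed and -0.17 ± 2.48 (SD, n = 3) in Vhigh. This difference of 2.05 was smaller than the SD of either fraction, and the two-sided exact permutation test gave p = 0.4 (0.6 adjusted over the 3 ratios compared). The difference was 0.78 without Vmed replicate 1 and 0.86 without Vhigh replicate 3, and 3.33 without Vhigh replicate 1. With the pairing, the exact two-sided sign-flip test gave p = 0.25, the smallest that 3 pairs allow.

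*Gfi1b* (chromosome 2, 28609450 to 28621982) was at 3.58, 37.8 and 26.6 CPM in Vmed replicates 1, 2 and 3 and at 66.9, 162.5 and 65.0 CPM in Vhigh. Vhigh replicates 1 and 3 were close to each other and still above the highest Vmed library, and Vmed replicate 1 was again the lowest. The means were 22.6 ± 17.4 CPM (SD, n = 3) in Vmed and 98.2 ± 55.8 CPM (SD, n = 3) in Vhigh. The fitted log2 fold change was 2.11 (SE 0.91), and its 95% interval ran from 0.10 to 4.13 (unadjusted p = 0.049, adjusted p = 0.9998 by the quasi-likelihood test of edgeR). In log2 CPM, same-numbered libraries differed by 4.15, 2.10 and 1.28 (exact permutation test over all libraries, two-sided, p = 0.1). The fitted value was 1.61 without Vmed replicate 1 and 1.57 without Vhigh replicate 2. With the replicate number as a block it was 2.49 (SE 0.73, unadjusted p = 0.023, adjusted p = 0.99 by the quasi-likelihood test of edgeR). In that design the likelihood ratio test of edgeR gave an adjusted p of 0.40.

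*Gfi1* (chromosome 5, 107716657 to 107726036), the paralog of *Gfi1b*, was at lower levels. It had 0, 84 and 0 counts in Vmed replicates 1, 2 and 3, and 57, 126 and 171 counts in Vhigh. In CPM, Vhigh was at 5.81, 10.2 and 14.4, and the 1 Vmed library with counts was at 9.79. *Gfi1* was thus seen in every Vhigh library and in 1 Vmed library, and that library lay within the Vhigh range. Against the 3 counts taken as the limit in each library, *Gfi1* was higher in Vhigh than in Vmed in replicates 1 and 3. The ratio was at least 16.2-fold in replicate 1 and at least 45.6-fold in replicate 3, bounds that cover counting error only. In replicate 2 the log2 CPM differed by only 0.05.

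The fitted log2 fold change of *Gfi1* was 1.63 (SE 2.34, unadjusted p = 0.51 by the quasi-likelihood test of edgeR), and the permutation test gave p = 0.2 (exact, two-sided). With the replicate number as a block it was 6.36 (unadjusted p = 0.17 from the same test), a value that depends on the libraries at 0. The log2 ratio of *Gfi1b* to *Gfi1* counts was 5.93, 1.94 and 8.98 in Vmed and 3.52, 3.995 and 2.17 in Vhigh, after 0.5 was added to each count. *Gfi1b* therefore had the larger count in every library. The fractions overlapped in this ratio, with a mean difference of -2.39 (two-sided exact permutation p = 0.4, adjusted over 3 ratios 0.6). The difference was -4.23 without Vmed replicate 2, -0.71 without Vmed replicate 3 and -1.10 with 2 added to each count. In Vmed replicates 1 and 3 this ratio rests on the added count, as *Gfi1* was at 0.

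*Kdm1a* (chromosome 4, 136550540 to 136602723) was the most even of the 8 genes. It was at 67.1, 49.0 and 77.0 CPM in Vmed replicates 1, 2 and 3 and at 43.2, 94.3 and 60.6 CPM in Vhigh, and the Vmed range lay within the Vhigh range. The log2 fold change was 0.04, with a 95% interval from -1.46 to 1.54, which leaves room for a difference in either direction. Its sign was the opposite with the replicate block (-0.019).

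*Rcor1* (chromosome 12, 111039351 to 111115901) was far less even. It was at 8.96, 35.6 and 6.33 CPM in Vmed and at 0.41, 59.5 and 12.1 CPM in Vhigh, where replicate 1 had only 4 counts. The replicate 2 libraries were the highest of each fraction. The fitted log2 fold change was 0.50 (SE 1.58, unadjusted p = 0.76 by the quasi-likelihood test of edgeR), while the mean of log2 CPM differed by -0.76 (exact permutation test, two-sided, p = 0.9). It was -0.49 with the replicate block and -1.50 without Vhigh replicate 2. The log2 ratio of *Kdm1a* to *Rcor1* counts was 2.90, 0.46 and 3.59 in Vmed and 6.56, 0.66 and 2.32 in Vhigh replicates 1, 2 and 3, so that the demethylase gene had more counts than its partner in each library. The fractions overlapped in this ratio, with a mean difference of 0.87 (two-sided exact permutation p = 0.8, also after adjustment over 3 ratios).

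**Figure D2:**
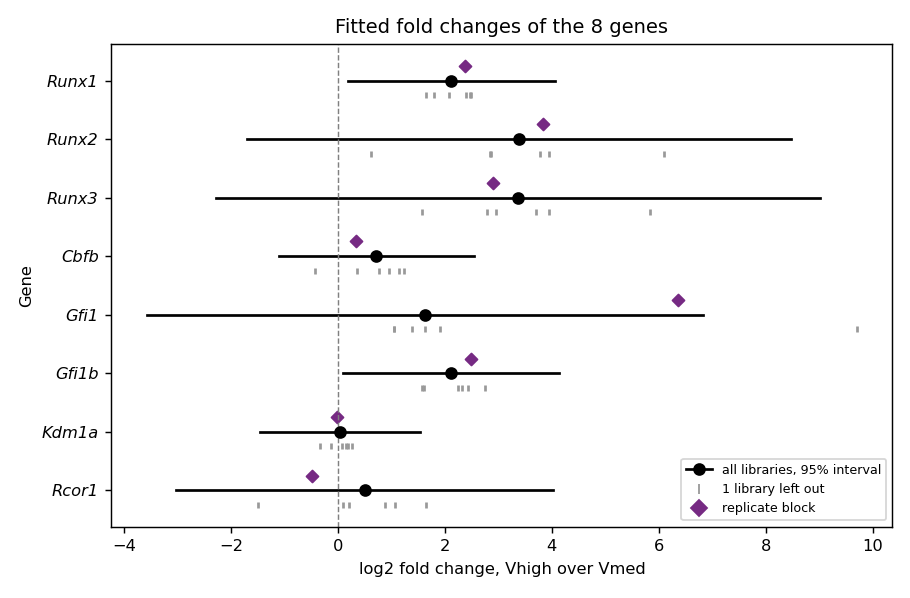
Fitted log2 fold change of Vhigh over Vmed for each gene (x axis), with the 95% interval from edgeR's quasi-likelihood fit over all 6 libraries. Grey ticks are fits with 1 library left out and diamonds are the fit with the replicate number as a block. The intervals of *Runx1* (0.18 to 4.06) and *Gfi1b* (0.10 to 4.13) lie above 0 before adjustment over all genes, and those of the other 6 genes cross 0.

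**Figure D3:**
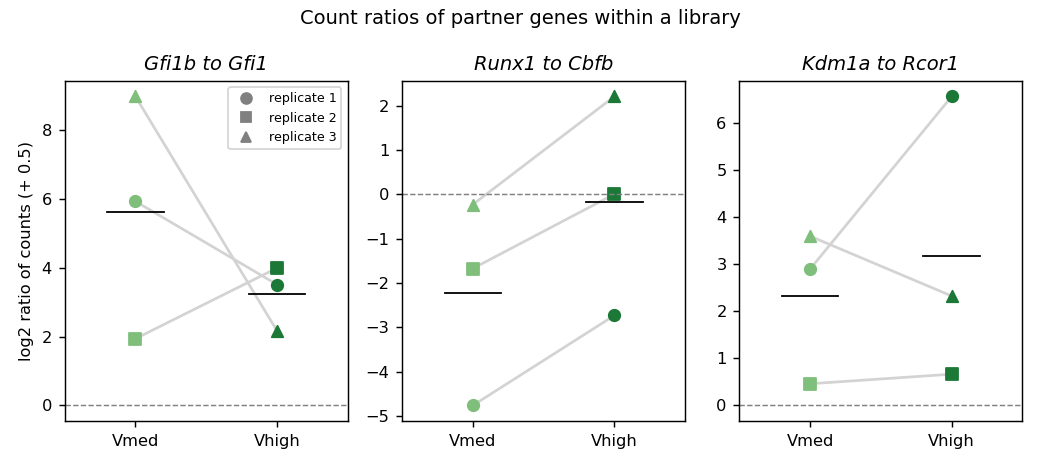
Log2 ratio of the counts of partner genes within each library (0.5 added), by fraction. Points are libraries, grey lines join same-numbered libraries and bars are means of 3. For *Runx1* to *Cbfb* the 3 lines run nearly parallel, with differences of 2.03, 1.68 and 2.44, while the lines of the other ratios cross.

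Levels were compared between genes per kilobase of exon (RPKM, CPM divided by the exon-union length in kilobases, which ranged from 1.83 for *Gfi1b* to 12.03 for *Runx1*). In Vmed the order of mean RPKM was *Cbfb* (25.2), *Kdm1a* (12.4), *Gfi1b* (12.4), *Rcor1* (2.98), *Runx1* (1.84), *Gfi1* (1.02), *Runx2* (0.089) and *Runx3* (0.078). In Vhigh it was *Gfi1b* (53.6), *Cbfb* (41.5), *Kdm1a* (12.8), *Runx1* (8.001), *Rcor1* (4.22), *Gfi1* (3.18), *Runx2* (0.95) and *Runx3* (0.82). The ranges over the 3 libraries overlapped for each neighbouring pair in either order. Compared within each library, *Gfi1b* was above *Rcor1* in all 3 Vmed libraries and *Gfi1* above *Runx2* in all 3 Vhigh libraries. No other neighbouring pair kept its order in all 3. *Gfi1b* had the highest RPKM of the 8 in Vhigh replicates 2 and 3, and *Cbfb* in Vhigh replicate 1. *Runx1* was the highest of the 3 *Runx* genes in every library.

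The genes whose log2 CPM followed these factors most closely were listed as a description, over 6 libraries that share fraction, depth and replicate number, among 9535 tested genes with a mean of at least 10 CPM. For *Runx1* they were *Inpp5d* (r = 0.997), which encodes the lipid phosphatase SHIP1 of blood cells, *Gpr56* (0.989), *Btk* (0.987), *Hells* (0.986) and *Acap1* (0.977). *Inpp5d* was at 11.9, 66.4 and 60.5 CPM in Vmed and at 82.3, 151.3 and 240.5 CPM in Vhigh, and *Btk*, the Bruton tyrosine kinase of B cells and myeloid cells, at 6.21, 37.8 and 35.7 and at 33.5, 92.4 and 125.8 CPM. For *Gfi1* they were *Psd4* (0.993), *Grk6* (0.991), *Seh1l* (0.983), *Tox* (0.977) and *Herc4* (0.973). *Psd4* had the same 2 Vmed libraries at 0 as *Gfi1*. For *Gfi1b* they were *Usp5* (0.994), *Arhgap35* (0.993), *Slmap* (0.990), *Med1* (0.985) and *Setd8* (0.985).

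The partners of these factors were nearly as often lower as higher. Of 17 RUNX partners and cofactors, 10 had a fitted log2 fold change above 0 and 7 below, with a median of 0.13, and 0 passed the test. Over all tested genes 48.9% were above 0, with a median of -0.02. The extremes were relatives of each other. *Cbfa2t3*, which encodes the blood corepressor ETO2, was at 2.27, 57.0 and 39.1 CPM in Vmed and at 55.3, 165.6 and 105.3 CPM in Vhigh (log2 fold change 1.73, SE 0.99, unadjusted p = 0.12 by the quasi-likelihood test of edgeR). *Runx1t1*, which encodes ETO, was at 127.7, 86.6 and 22.9 CPM in Vmed and at 32.1, 88.9 and 21.5 CPM in Vhigh (log2 fold change -0.74, SE 0.86). For both genes the fractions overlapped.

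Of 13 further genes of the LSD1 and CoREST complex and of Gfi1 corepressors, 4 were above 0 and 9 below, with a median of -0.14 and 0 past the test. The count above 0 was 8 without Vhigh replicate 1 and 7 without Vmed replicate 3. *Gse1*, a subunit of LSD1 complexes, had the largest log2 fold change (0.83, SE 1.08). *Hmg20b*, which encodes the CoREST complex subunit BRAF35, had 12.3 and 55.1 CPM in Vhigh replicates 2 and 3 but 0.10 CPM in Vhigh replicate 1, the library in which *Rcor1* had 4 counts. That library had the fewest genes with a count (10427). Genes outside the complex were near 0 in it too, such as *Crebbp* (0.10 CPM) and *Cldn5* (0.20 CPM), both chosen after their values were seen. *Hdac1* was at 82.9 CPM in the same library. The part of these library properties in the *Rcor1* and *Hmg20b* values was not tested. The deacetylase genes *Hdac1* and *Hdac2* had log2 fold changes of -0.04 and -0.35. *Rcor2* and *Rcor3*, the paralogs of *Rcor1*, had 0.61 and -0.20. *Hmg20b*, the deacetylases and the *Rcor* paralogs were chosen after their values were seen, for their place in the complex.

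Of 6 other zinc finger genes whose proteins carry a SNAG domain, *Insm1*, *Scrt1* and *Scrt2* were at or near 0 in every library and only the *Snai* genes were tested. None of the 3 passed the test, and all were below 0, with log2 fold changes of -0.43 for *Snai1*, -2.37 for *Snai2* and -2.51 for *Snai3*. *Snai2*, chosen after its values were seen and known for its part in the epithelial-to-mesenchymal transition, was at 32.9, 64.2 and 15.3 CPM in Vmed and at 16.7, 0.32 and 4.73 CPM in Vhigh replicates 1, 2 and 3. The fractions overlapped for *Snai2*. The summed mesenchyme markers were lower in each Vhigh library. Within Vmed their sum was highest in replicate 3 (4497 CPM), where *Snai2* was lowest. Within Vhigh the sum was highest in replicate 1 (578 CPM), where *Snai2* was highest. The part of these markers in the *Snai2* values was not tested.

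Blood genes known to be bound by RUNX1 were mostly higher in Vhigh, and the part of *Runx1* in this was not tested. The list was chosen with earlier results of these data known. Of 14 genes, 11 were above 0 and 3 below, with a median log2 fold change of 1.16, and 0 passed the test. For 5 of them (*Mpo*, *Nfe2*, *Myb*, *Ikzf1* and *Coro1a*) the Vhigh libraries were all above the Vmed libraries, and for *Pf4* they were all below. Without overlap in either direction were 8.94% of all tested genes. *Myb*, which is needed for definitive blood, had the largest log2 fold change, with 1.91, 1.28 and 6.12 CPM in Vmed and 79.6, 173.8 and 106 CPM in Vhigh. Its log2 fold change was 5.26 (SE 0.81), and the quasi-likelihood test of edgeR gave an adjusted p of 0.66. The likelihood ratio test of edgeR gave it 0.0022 and DESeq2 1.28e-06. *Pf4*, the platelet chemokine, had the smallest, at -2.56 (SE 0.88, adjusted p = 0.9998 from the quasi-likelihood test), with 498, 368.7 and 154.1 CPM in Vmed and 143.9, 15.96 and 13.2 CPM in Vhigh. For *Pf4* the likelihood ratio test of edgeR gave an adjusted p of 0.78 and DESeq2 0.68. With the replicate block, edgeR gave *Pf4* an adjusted p of 0.63 by quasi-likelihood and 0.0015 by likelihood ratio. *Spi1*, the myeloid factor PU.1 (chosen after its values were seen), was at 13.1, 2.80 and 80.2 CPM in Vmed and at 21.9, 4.35 and 177.5 CPM in Vhigh replicates 1, 2 and 3.

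Endothelial genes, which the Gfi1 complex is known to repress, were mostly lower in Vhigh, and the part of the complex in this was not tested. This list, too, was chosen with earlier results known. Of 19 genes, which include the sorting marker gene *Pecam1*, 16 were below 0 and 3 above, with a median log2 fold change of -0.71 and 0 past the test. The count above 0 depended on single libraries, from 1 without Vmed replicate 1 to 8 without Vmed replicate 3. The median was -0.17 without Vmed replicate 3 and -1.68 without Vhigh replicate 3. *Sox7* had the smallest value (-1.45, SE 1.22), at 21.0, 31.0 and 101.3 CPM in Vmed and at 4.59, 4.596 and 46.8 CPM in Vhigh. Its log2 fold change was -0.48 without Vmed replicate 3 and -3.40 without Vhigh replicate 3. *Erg*, an ETS factor of endothelium and stem cells alike, had the largest (0.70, SE 1.51). *Emcn*, the sialomucin endomucin, was the only one of the 19 whose fractions did not overlap, against 5.3% of all tested genes without overlap and lower in Vhigh. It was at 485.8, 920.2 and 890.9 CPM in Vmed and at 388.4, 151.3 and 366.1 CPM in Vhigh (chosen after its values were seen). *Cdh5*, which encodes VE-cadherin, was at 101.8, 349.1 and 281.3 CPM in Vmed and at 61.5, 126.6 and 148.4 CPM in Vhigh, and it was likewise chosen after its values were seen.

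**Figure D4:**
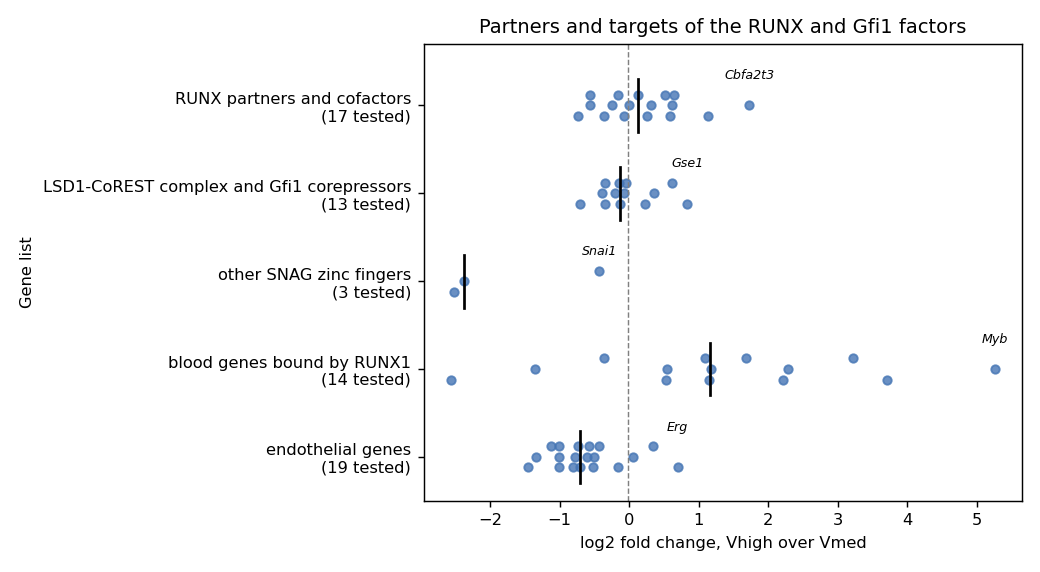
Fitted log2 fold change of Vhigh over Vmed (x axis) for each tested gene of 5 hand-written lists. All lists were chosen with earlier results of these data known. Points are genes, black bars are list medians, the dashed line is the median of all tested genes (-0.02), and the gene with the largest value of each list is named. The median of the RUNX1 target list is at 1.16 and that of the endothelial list at -0.71, while both lists of partners have medians near 0.

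Markers of other cells differed between the fractions along with *Runx1* and *Gfi1b*. The macrophage list (11 of 12 genes in the tables) summed to 993.9 to 1854 CPM in Vmed and 126.5 to 590.9 CPM in Vhigh, with 8 to 11 of its genes at 3 counts or more in each library. The mesenchyme list (9 genes) summed to 1800 to 4497 CPM in Vmed and 193.4 to 578 CPM in Vhigh, and the megakaryocyte list (8 genes) to 430.5 to 790 CPM and 173.1 to 369.4 CPM. For the sums of these 3 lists no Vhigh library reached any Vmed library. The genes of the megakaryocyte list did not all follow its sum, as 6 had a log2 fold change below 0 and 2 above. *Pf4* was its highest gene in each Vmed library. *Itga2b*, chosen after its values were seen, was at 6.45, 55.1 and 90.4 CPM in Vmed and at 5.81, 47.9 and 165.8 CPM in Vhigh. The stem and progenitor list (12 genes, all at 3 counts or more in each Vhigh library) summed to 691.2 to 1600 CPM in Vmed and 1466 to 3190 CPM in Vhigh. It includes *Gata2*, whose reporter split the fractions, and the sorting marker gene *Kit*, so its sum is not independent of the sort. Of its genes, 11 had a log2 fold change above 0 and 1, *Cd93*, below. The lowest library of this list was Vmed replicate 1, which was also the lowest for *Runx1* and *Gfi1b*. The part of all these markers in the values of *Runx1* and *Gfi1b* was not tested. By function, the study found most colony-forming progenitors in Vmed. With cells of later embryos, it found transplantable stem cells in Vmed alone. It reads the Vhigh cells as more differentiated.

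The other lists overlapped between the fractions. The erythroid list (9 genes) summed to 193 to 628.2 CPM in Vmed and 88.3 to 253.5 CPM in Vhigh, with *Hba-a1* at 0 in every library. The mast cell and basophil list (6 genes) summed to 28.4 to 62.8 CPM and 39.9 to 149.3 CPM. Of its genes, the mast cell protease gene *Cpa3* was at 11.6, 3.50 and 0 CPM in Vmed and at 148.7, 20.9 and 11.2 CPM in Vhigh, *Ms4a2* and *Fcer1a* had counts in Vhigh replicate 2 alone, and *Mcpt8* in Vmed replicate 1 alone. Sensory neuron and bone and cartilage markers in Vhigh ranged from 19.1 to 187.3 CPM and from 24.2 to 96.9 CPM.

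**Figure D5:**
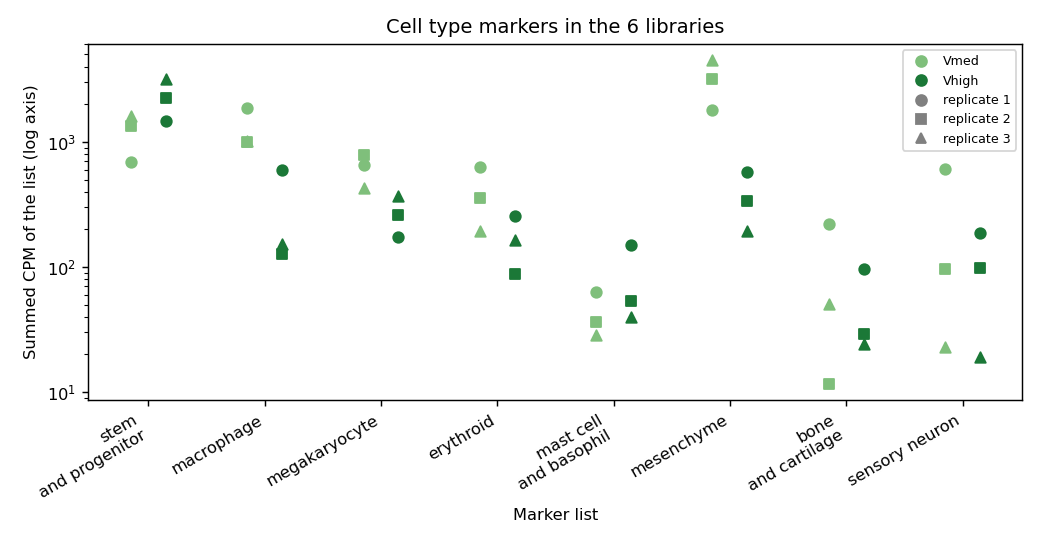
Summed CPM (log axis) of 8 marker lists in each library, Vmed in light and Vhigh in dark green, with a shape for each replicate number. The macrophage, mesenchyme and megakaryocyte sums of all Vhigh libraries lie under those of all Vmed libraries (for mesenchyme, 193.4 to 578 against 1800 to 4497 CPM).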

How the data were processed

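CD31+ckit+Vmed and CD31+ckit+Vhigh cells were compared in 3 libraries each, assigned by their titles. The authors prepared RNA with the SMARTer protocol, aligned single reads to GRCm38/mm10 with TopHat and Bowtie 1.1.2 and counted them with HTSeq, as the submitters' processing notes list them. The deposited files hold raw counts per gene symbol, not normalized. Annotation and strand setting are not given in the sources used here, so antisense reads cannot be told apart. Genes were kept by filterByExpr (12688 of 24062, minimum count 10), scaled by TMM and tested with edgeR 4.0.16 (R 4.3.3, limma 3.58.1) by the quasi-likelihood test, with Benjamini-Hochberg adjustment at 0.05 over all genes. The design had the fraction as its only term. Standard errors come from the information matrix. All 8 genes passed the filter, *Gfi1* with 1 Vmed and 3 Vhigh libraries at the minimum.

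Log2 CPM used a prior count of 2, and ratios an added count of 0.5. Exact permutation tests ran over all 20 arrangements of the 6 libraries. Replicate numbers were taken as pairs, by how deviations from the fraction mean correlated across genes. Same-numbered libraries had r of 0.212, 0.207 and 0.388, against -0.289 to -0.00614 for other combinations. Because deviations are taken from the fraction mean, the negative values follow in part from the positive ones. No 2 libraries were alike within counting error (chi-square per degree of freedom of 93.7 or more over 15 pairs). The study describes its RNA-seq values as coming from 3 independent experiments, and the number of embryos pooled for each is not given in the sources used here.

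Gene models and exon-union lengths came from GENCODE M21 (GRCm38), promoters from RefSeq. Named genes were the 8 genes, the sort genes, the largest and smallest of each list by log2 fold change (1 of them is not reported here), and the 5 genes with the highest r to *Runx1*, *Gfi1* and *Gfi1b*. Genes and lists were chosen with earlier results of these data known. Alternatives were RLE scaling, library totals, no filter, the likelihood ratio test, DESeq2 1.42.0, the replicate block and each library left out. Intervals and limits cover counting error or the spread between libraries only, as reads carry no molecular identifiers.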

Additional observations from a re-analysis of the deposited data

How the results depend on the processing

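None of the 8 genes was called under any alternative. The number of genes called over the whole table was 0 by the quasi-likelihood test, 37 without the low-count filter, 21 by the likelihood ratio test and 88 by DESeq2. With the replicate block it was 0 by the quasi-likelihood test and 74 by the likelihood ratio test, and no call on the 8 genes changed with the pairing. With single libraries left out it ranged from 0 to 1. The cause of these differences was not tested.

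*Runx1*, *Runx2*, *Runx3*, *Gfi1* and *Gfi1b* kept a log2 fold change above 0 under every alternative. With single libraries left out it ranged from 1.65 to 2.49 for *Runx1*, from 1.57 to 2.76 for *Gfi1b* and from 1.05 to 9.70 for *Gfi1*, the last without Vmed replicate 2, which leaves *Gfi1* at 0 in Vmed. Signs turned for *Kdm1a* and *Rcor1* with the replicate block (-0.019 and -0.49, by either test). They also turned for *Kdm1a* without Vmed replicate 2 (-0.13) or Vhigh replicate 2 (-0.34), for *Rcor1* without Vhigh replicate 2 (-1.50), and for *Cbfb* without Vhigh replicate 1 (-0.43). The highest values of these 3 with a library left out were 0.27, 1.65 and 1.23.

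The mean difference in log2 CPM ranged, with single libraries left out, from -0.48 to 1.17 for *Cbfb*, from -0.30 to 0.26 for *Kdm1a* and from -2.24 to 1.07 for *Rcor1*, and that of *Kdm1a* was 0.021 with library totals. The log2 ratio of *Kdm1a* to *Rcor1* ranged from -0.82 to 2.12. After seeing the data, counts of genes were also taken with libraries left out, with library totals and with the replicate block. Between 2 and 5 of the 8 genes then had no overlap between fractions, the most without Vhigh replicate 1, where 9.41% of all tested genes were higher in Vhigh without overlap. Genes above 0 numbered 4 to 8 in the corepressor list, 0 to 1 in the SNAG list and 1 to 8 in the endothelial list, with 5 in the last under the replicate block.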
